A study of Mus musculus with 6 samples.

Results

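Histones are the proteins around which DNA is wound, and the arrays measured transcripts of both kinds of histone gene: the canonical genes that lie in clusters and the variant genes that lie elsewhere. A probe set, the group of short probes that reads 1 transcript, was taken as a histone probe set if the platform annotation listed exactly 1 gene for it with a symbol beginning H1f, H2ac, H2bc, H2az, H2aw, H2aj, H2ax, H3c, H3f, H4c, Hist or Macroh2a. This gave 34 of 45037 probe sets, which represent 23 of 18193 genes. Of these, 16 probe sets read 11 canonical genes and 18 read 12 variants. H4 genes had no probe set of their own under this rule, and neither did the linker histone gene H1f0.

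The samples were primary fibroblasts from the dermis of B6 mice aged 0 to 2 days, of mixed sex, explanted separately for each biological replicate and used at passage 4. In 3 treated cultures the cells received 5-aza-2'-deoxycytidine (decitabine) at 5 µM, renewed every 24 hours over 96 hours, and then spent 24 hours in drug-free medium. The 3 control cultures were untreated, and the labels name no vehicle. Replicating cells take decitabine, an analogue of deoxycytidine, into their DNA, where it binds DNA methyltransferases irreversibly, and dividing cells then lose DNA methylation. Each culture was read on 1 expression array, n = 3 per group, and values are MAS5 signals scaled to a common array mean.

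Canonical histone genes supply the bulk of histones during DNA replication. They are transcribed in S phase from clusters of closely spaced genes, and most of their mRNAs end in a stem-loop bound by SLBP in place of a poly(A) tail. Variant genes, such as those of H2A.Z, macroH2A and H3f3b, are transcribed outside S phase as well, their mRNAs are polyadenylated, and their proteins replace canonical ones at particular places in chromatin. The labelling used with these arrays starts from poly(A) tails, so the canonical signals here come mainly from transcripts that carry a tail, and the share of each gene's mRNA that does was not measured.

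The cultures carried the markers of fibroblasts, though at different levels in the groups. All 10 fibroblast markers were tested, and 8 were lower and 1 (Fn1) higher in treated cultures. Their summed signal was 32182 to 38154 on treated arrays and 59677 to 68582 on control arrays. Markers of other cell types were summed in the same way. The summed signals were 762 to 908 (treated) and 626 to 696 (control) over 5 leukocyte markers, so that the groups did not overlap, with Cd68 higher among 4 tested. Csf1r, another of these, read 319.9 to 439.9 on treated and 271 to 331.5 on control arrays and was not called. The sums were 214 to 268 (treated) and 141 to 207 (control) over 4 markers of skeletal muscle, with Des higher and the others untested. Over 4 endothelial markers they were 226 to 325 (treated) and 239 to 279 (control), with Cdh5 higher and Tek lower among 3 tested, and over 5 melanocyte markers 271 to 419 (treated) and 256 to 429 (control), with Pmel lower among 4 tested. None of the 2 tested keratinocyte markers was called by limma, nor was the 1 tested Schwann cell marker. At least 1 marker of each of these types but Schwann cells was too dim to be tested, among them Ptprc, Pecam1, Krt14, Mlana and Myog. The part of these differences in the histone results was not tested, and in such bulk samples fewer cells of a type and less RNA per cell cannot be told apart. For Actb, whose transcript is read at both ends as an index of RNA integrity, the 3' signal was 1.16 ± 0.019 times the 5' signal in treated and 1.26 ± 0.010 times in control cultures (SD, n = 3). An exact two-sided permutation test gave p = 0.1, which is the lowest value possible here. For Gapdh the ratio was 0.764 ± 0.024 in treated and 0.739 ± 0.016 in control cultures (SD, n = 3; exact permutation p = 0.2).

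Promoter sequence is shown first for 4 canonical genes that were higher in treated cultures and for 2 variants that were lower. These are among the genes that carry the contrast described below. The stretches of H2aw, H2aj and H2az1, which were also called, are not shown. The stretches are the 120 bases before the annotated start in RefSeq on GRCm38.p6, read 5′ to 3′ on the gene's strand. Capitals mark the CCAAT box (CCAAT, or ATTGG on the other strand) and the TATA box (TATAAA, or TTTATA), both classical promoter elements.
H2ac19, chr3:96240375-96240494, minus strand: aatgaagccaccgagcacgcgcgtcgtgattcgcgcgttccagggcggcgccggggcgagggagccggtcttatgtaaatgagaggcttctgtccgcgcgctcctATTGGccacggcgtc
H3c11, chr13:21783398-21783517, minus strand: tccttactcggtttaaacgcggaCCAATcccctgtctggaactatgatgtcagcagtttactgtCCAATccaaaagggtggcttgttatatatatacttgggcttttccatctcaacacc
H3c4, chr13:23575643-23575762, plus strand: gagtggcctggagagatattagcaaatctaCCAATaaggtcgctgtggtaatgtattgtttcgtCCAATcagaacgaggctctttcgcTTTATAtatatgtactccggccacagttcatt
H1f2, chr13:23738687-23738806, plus strand: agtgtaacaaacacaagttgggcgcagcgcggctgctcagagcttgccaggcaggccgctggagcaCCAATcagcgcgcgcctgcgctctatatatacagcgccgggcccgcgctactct
H2az2, chr11:6444444-6444563, minus strand: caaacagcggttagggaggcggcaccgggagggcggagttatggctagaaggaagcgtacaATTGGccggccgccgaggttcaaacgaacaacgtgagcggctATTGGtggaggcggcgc
Macroh2a2, chr10:61783865-61783984, minus strand: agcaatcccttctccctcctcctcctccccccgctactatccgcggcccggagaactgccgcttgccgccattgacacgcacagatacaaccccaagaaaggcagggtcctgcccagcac

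In H3c4 and H3c11 the CCAAT box nearest the start begins 56 bases upstream of it in both genes, and in H1f2 it begins 54 bases upstream. The H3c4 stretch also holds an exact match to the TATA box letters, TTTATA, that begins 32 bases upstream. Runs of tatatata near the start of the H3c11 and H1f2 stretches are not exact matches and are left unmarked. The marks therefore do not set H3c4 apart from these genes. The Macroh2a2 stretch holds neither motif, though its longer window described next holds a CCAAT box. A window of 250 bases before to 50 after the start was available for 19 of the 23 genes. Over all canonical histone genes of the RefSeq table, 52 of 60 windows (86.7%) held a CCAAT box on either strand, beside 8 of 13 variant windows (61.5%) and 37.4% of all 32851 windows. A TATA box was found in 56.7% of canonical windows, 15.4% of variant windows and 13.6% of all windows. The octamer (ATTTGCAT or ATGCAAAT), an element known from H2B promoters, was in 46.7% of the 15 canonical H2B windows and in 1.74% of all windows. Canonical windows other than H2B held it in 15.6% of 45, and variant windows in 1 of 13. No matches overlap each other in the stretches shown. CpG dinucleotides, the sites of DNA methylation, numbered 36 in the window of H2ac19, 8 in those of H3c4 and H3c11, 19 in that of H1f2, 27 in that of H2az2 and 23 in that of Macroh2a2. The median was 7 over all windows, 11 over the canonical and 24 over the variant histone windows. The called genes whose stretch is not shown had 34 (H2az1, lower), 17 (H2aj, higher) and 14 (H2aw, higher). Tested members that were not called, where a window was available, had 40 (H1f10), 37 (Macroh2a1), 24 (H3f3b), 16 (H2bc22) and 15 (H2bc18). The arrays did not measure methylation at any of these sites.

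Canonical histone genes were mostly higher in treated cultures, and the variants were divided. Of the 11 canonical genes, 8 had a tested probe set, and 6 of these 8 rose and 0 fell (limma, adjusted p under 0.05), with a median log2 change of 0.79. Of the 12 variants, 9 were tested, 1 rose and 4 fell, with a median of -0.42. Over all 12194 tested genes the median log2 change was -0.0032, 41.1% were called, 19.5% higher and 21.6% lower. Counted by probe set, 10 of the 24 tested histone probe sets rose and 5 fell, where 38.7% of all 23388 tested probe sets were called, 18.4% higher and 20.3% lower. Treated and control arrays did not overlap for 16 of the 24, where the share over all tested probe sets was 50.4%. The filter on dim probe sets kept those above their array's median on at least 3 of 6 arrays. H3c11 was the sole tested histone probe set that passed it through treated arrays alone. It could be tested only because its treated signals were high. H3c7 was above the median on 3 treated arrays and 1 control array, so its pass depended on its treated signals too. Both are among the 6 canonical genes that rose.

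**Figure D1:**
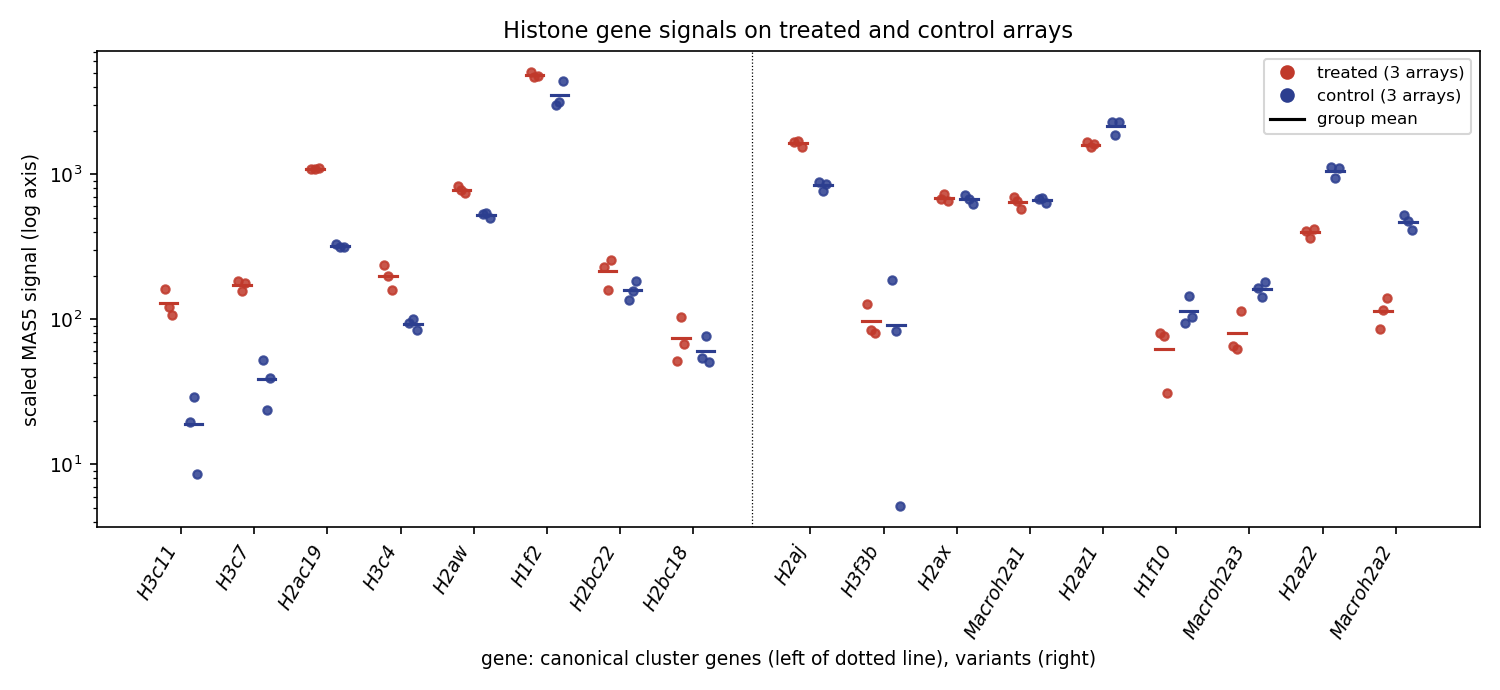
Scaled MAS5 signal (log axis) of the 17 histone genes with a tested probe set, 8 canonical genes left of the dotted line and 9 variants right of it, ordered within each class by log2 change. Points are arrays, treated left of control for each gene, and bars are means of 3. The groups lie apart for the 6 canonical genes that were called, and overlap for H2bc22 and H2bc18.

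All 3 tested H3 genes, which lie in the large cluster on chromosome 13, rose. H3c11 had signals of 161, 120.8 and 106.7 on the 3 treated arrays, against 19.7, 29.0 and 8.55 on control arrays. Its log2 change was 2.32 ± 0.33 (SE; limma adjusted p = 0.00042), and since the control signals were close to the pseudocount of 9.66 that was added before the log, the size of this change and its rank depend on that constant. With the larger pseudocount it was 1.54, below that of H2ac19 at 1.66. H3c7 measured 183, 157 and 178 on treated arrays and 52.5, 23.5 and 39.5 on control arrays. Its log2 change was 1.97 ± 0.24 (limma adjusted p = 0.00020). For both genes every treated array lay above every control array. H3c4 was at 238, 200.3 and 158 in treated cultures and at 93.6, 100.1 and 84.8 in control cultures, a log2 change of 1.01 ± 0.17 (limma adjusted p = 0.0014). These genes encode the H3 that is deposited during replication.

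Of the canonical H2A genes, H2ac19 lies in a smaller cluster on chromosome 3, and its replicates lay close together. Its brighter probe set read 1084, 1095 and 1105 on treated arrays, against 333, 315 and 316 on control arrays. This is a log2 change of 1.74 ± 0.081 (SE; limma adjusted p = 4.8e-07), or 3.34-fold. A second probe set of H2ac19 read 552, 625 and 504 in treated cultures and 212, 212 and 188 in control cultures, with a log2 change of 1.41 ± 0.11 (limma adjusted p = 1.3e-05). The name of the brighter one carries an x, which marks probes that can also match other transcripts, and the other has a plain name. H2aw, on chromosome 11, was read by a probe set with an s in its name, the mark of probes shared by transcripts of different genes, at 824, 777 and 743 on treated arrays and 529.6, 536 and 498 on control arrays (log2 change 0.57 ± 0.085; limma adjusted p = 0.00060). The readings for H2aw differed between its probe sets. The other, dimmer probe set of the gene measured 113, 100.02 and 75.7 in treated cultures and 127, 109 and 104 in control cultures, with a log2 change of -0.23 ± 0.19 that was not called (limma adjusted p = 0.38). H2aw was not called when both probe sets were averaged (0.17; limma adjusted p = 0.25), nor with the signals left unscaled (0.50; 0.14).

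The linker histone H1f2, which binds the DNA between nucleosomes, was represented by a probe set with 5035, 4650 and 4779 on treated arrays, against 3025, 3167 and 4410 on control arrays. Its log2 change was 0.47 ± 0.13 (SE; limma adjusted p = 0.019). Control replicate 3 lay close to the treated arrays, and the call was lost without control replicate 1 (adjusted p = 0.069), control replicate 2 (0.070) or treated replicate 1 (0.057), with unscaled signals (0.12) and with no variance trend (0.062). Another bright probe set of H1f2 read 4870, 4402 and 4498 in treated cultures and 2172, 2651 and 2791 in control cultures, a log2 change of 0.86 ± 0.10 (limma adjusted p = 0.00014). The third, dim probe set, the only one with a plain name, changed by -0.08 ± 0.35 and was not called (adjusted p = 0.88).

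The canonical H2B genes with a probe set of their own were not called. H2bc22 measured 229, 160.1 and 258 on treated arrays and 135, 157 and 183 on control arrays, with overlapping groups and a log2 change of 0.41 ± 0.19 (SE; limma adjusted p = 0.12). Without treated replicate 2 it was called, at 0.60 (adjusted p = 0.022). H2bc18 measured 51.4, 103 and 67.9 in treated cultures and 53.9, 77.3 and 50.5 in control cultures (0.23 ± 0.28; limma adjusted p = 0.57). H1f4, H1f6 and H2bc21 were too dim to be tested.

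The 4 variants that fell were the H2A.Z genes H2az1 and H2az2 and the macroH2A genes Macroh2a2 and Macroh2a3. H2A.Z is an H2A variant found at promoters and enhancers. H2az2 read 408, 366 and 419.6 on treated arrays, against 1123, 946 and 1096 on control arrays, a log2 change of -1.38 ± 0.10 (SE; limma adjusted p = 7.1e-06). The treated arrays lay far below every control array at this probe set, whose name carries an a, the mark of probes shared by several transcripts of a gene. A dimmer probe set of H2az2 with a plain name read 69.8, 81.2 and 53.2 in treated cultures and 81.6, 99.2 and 72.2 in control cultures, with a change of -0.28 ± 0.22 that was not called (limma adjusted p = 0.36). H2az1, which encodes nearly the same protein, was at 1657, 1530.1 and 1605 on treated arrays and at 2297, 1876 and 2291 on control arrays. Its log2 change was -0.42 ± 0.095 (limma adjusted p = 0.0060), and that of its other bright probe set was -0.27 ± 0.088 (limma adjusted p = 0.037). With the signals left unscaled H2az1 lost its call (adjusted p = 0.075).

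MacroH2A is an H2A variant with a large extra domain that is associated with silent chromatin and the inactive X chromosome. Macroh2a2 read 85.5, 115.6 and 139.6 on treated arrays, against 524, 475 and 413 on control arrays. The log2 change of -1.98 ± 0.17 (SE; limma adjusted p = 2.2e-05) means that control signals were 3.95-fold those of treated cultures on this scale. Macroh2a3, which the RefSeq table lists as a transcribed pseudogene, read 65.1, 62.4 and 115 in treated cultures and 165.5, 143 and 181 in control cultures (-0.97 ± 0.23; limma adjusted p = 0.0075). Both probe sets carry an x in their names and a further probe set is listed for both genes together, so the readings of this pair may not be separate. That shared probe set changed by -1.38 ± 0.16 (limma adjusted p = 0.00011). Another probe set of Macroh2a3, with a plain name, was too dim to be tested. It read 22.3, 35.7 and 40.8 in treated cultures and 40.7, 49.5 and 24.3 in control cultures, with overlapping groups. Macroh2a1, the main macroH2A gene in many tissues, was at 693, 653 and 578 on treated arrays and at 673, 682 and 637 on control arrays. Its groups overlapped and its change was -0.05 ± 0.094 (limma adjusted p = 0.70).

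The variant that rose was H2aj, an H2A variant known from senescent human fibroblasts. It measured 1682, 1688 and 1550.4 on treated arrays, against 889, 771 and 861 on control arrays. The log2 change was 0.96 ± 0.085 (SE; limma adjusted p = 2.5e-05), and a dimmer probe set also rose, by 0.61 ± 0.20 (limma adjusted p = 0.036). H2ax, whose protein is phosphorylated at DNA breaks, was at 680.2, 729.7 and 654 in treated cultures and at 719, 677 and 623 in control cultures, with overlapping groups and a log2 change of 0.03 ± 0.091 (limma adjusted p = 0.81). The linker variant H1f10 had 81.1, 76.1 and 31.0 on treated arrays and 94.3, 146 and 104 on control arrays. Its groups did not overlap, but its change of -0.85 ± 0.32 missed the threshold (limma adjusted p = 0.061) and passed it without treated replicate 1 (-1.05; adjusted p = 0.045) and without scaling (-0.92; 0.027). Without treated replicate 3 it was -0.47 (limma adjusted p = 0.15) and without control replicate 2 -0.67 (0.18). H3f3b, which encodes the replacement H3, had a probe set with 127, 84.8 and 79.99 in treated cultures and 186, 82.4 and 5.19 in control cultures. The control arrays alone spanned the whole range of the treated ones, and the estimate of 0.70 ± 0.75 (limma adjusted p = 0.50) gave no direction. The probe sets of the germ cell linker histones H1f7 and H1f8, and that of H3f3a, were too dim as well. A dim probe set does not show that a gene's transcripts are scarce. All 10 untested histone probe sets had signals between 1.12 and 66.1. In a limma fit with no filter 0 of the 10 were called, and 1 had an unadjusted p under 0.05, where 18.9% of all probe sets were called, 9.07% higher and 9.8% lower.

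**Figure D2:**
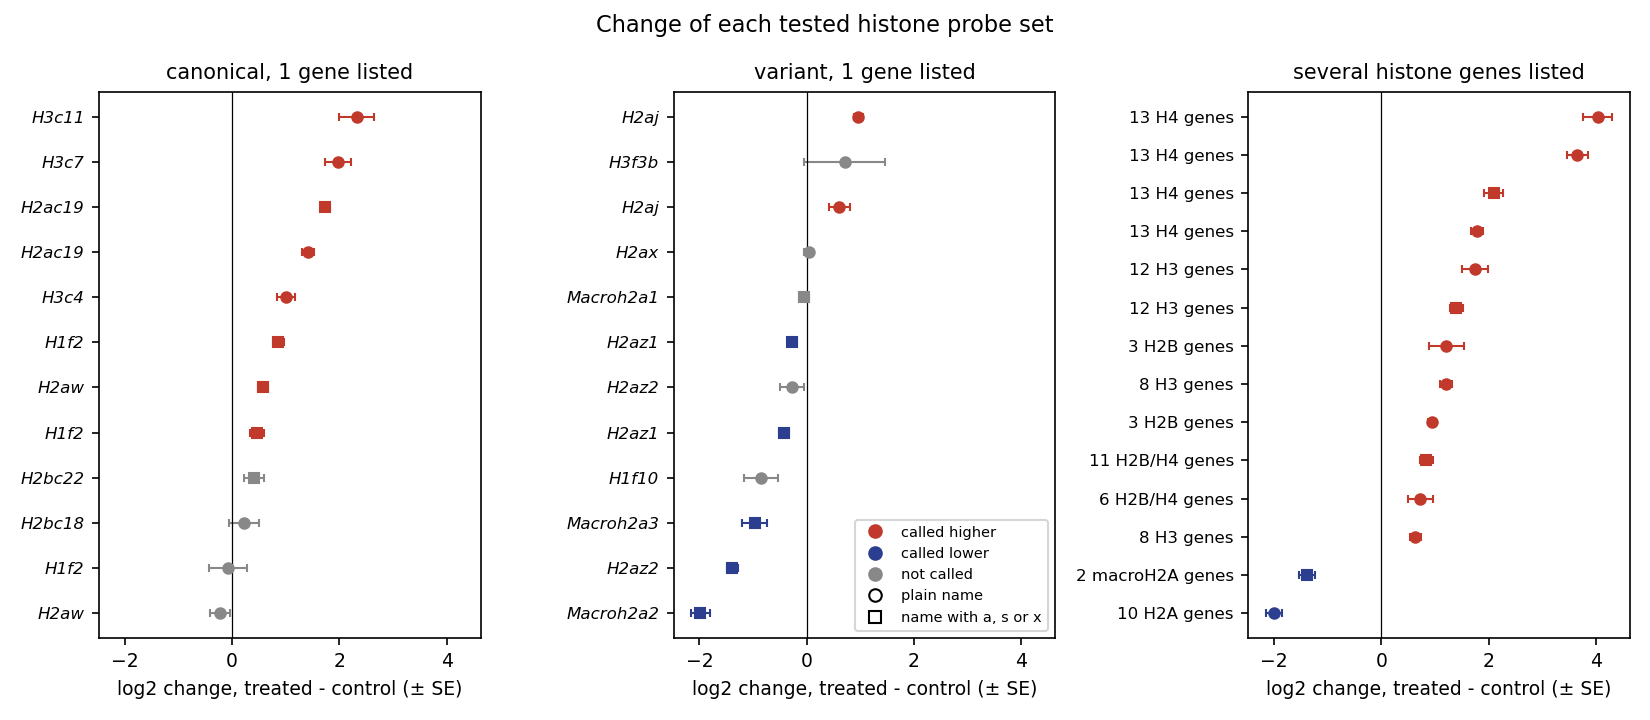
Log2 change, treated minus control, with its SE, of each tested histone probe set: 12 of canonical genes (left), 12 of variants (middle) and 14 listed with several histone genes (right). Red marks probe sets called higher, blue those called lower and grey those not called, and squares have an a, s or x in the name. All 5 blue marks in the middle panel are squares.

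The contrast between the classes was also read by the kind of probe set. All 5 histone probe sets that fell carry an a or x in their names, and 4 of the 10 that rose carry an a, s or x. Among probe sets with plain names, 13 were tested, of which 6 rose and 0 fell. In that setting the median log2 change of the tested canonical genes was 1.01 and that of the variants 0.03. Of the variants that fell, H2az1, Macroh2a2 and Macroh2a3 had no tested probe set with a plain name. The setting therefore cannot tell whether plain probe sets would read these genes differently.

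Mean log2 signals over the tested genes of a class restate the contrast by array, from the same gene signals. Over the 8 canonical genes they were 8.61, 8.53 and 8.51 on treated arrays 1 to 3, against 7.47, 7.499 and 7.41 on control arrays 1 to 3. Over the 9 variants they were 8.38, 8.32 and 8.29 on treated arrays, against 8.99, 8.80 and 8.52 on control arrays. The lowest control value of the variants was that of control replicate 3, the array with the low H3f3b signal given above.

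**Figure D3:**
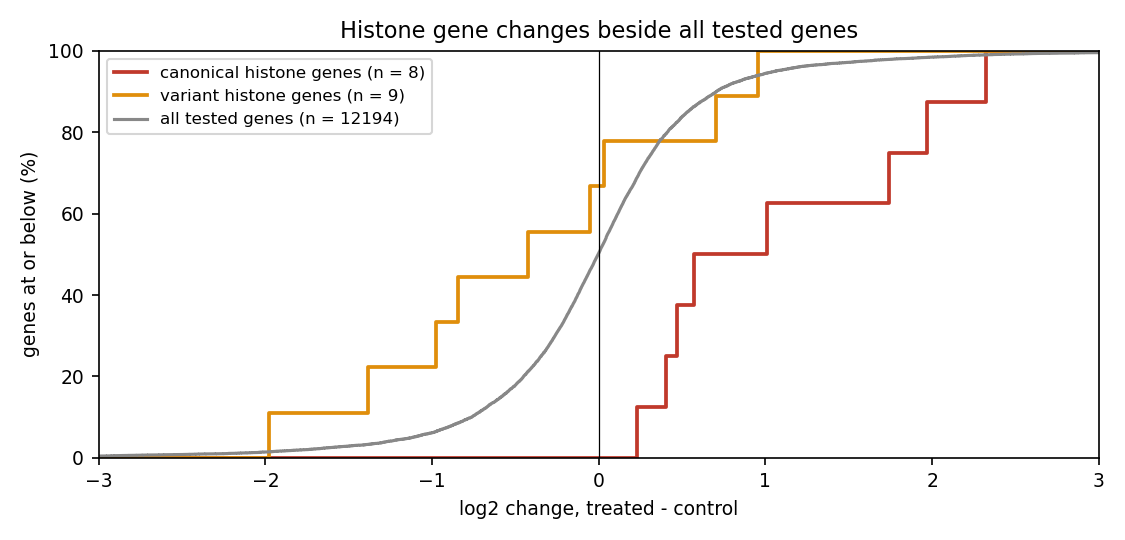
Cumulative distribution of log2 change, treated minus control, for 8 canonical histone genes (red), 9 variants (orange) and all 12194 tested genes (grey). The vertical axis is the percentage of genes at or below each change. The canonical line starts to climb at 0.23, to the right of 0, and the variant line reaches down to -1.98.

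Most canonical genes are so alike that the annotation lists several for 1 probe set. There were 18 such histone probe sets, which name no gene and are not part of the counts above. Their lists overlap with the genes counted above and with each other, so they are not separate readings. The tested H3 ones all list H3c4 and H3c7, and the tested H4 ones all carry the same list. Of the 14 shared probe sets tested, 12 rose and 2 fell, where 18.4% of all tested probe sets rose and 20.3% fell. Among the 12 were 3 that passed the filter through treated arrays alone, 1 listed with 3 H2B genes and 2 listed with H4 genes. Of the rest, 1 listed with 12 H3 genes was above the median on 3 treated arrays and 1 control array. The same held for 1 listed with 6 H2B and H4 genes, so both needed their treated signals to pass. The H3 one had a log2 change of 1.74. The 4 tested probe sets listed with 12 or 8 H3 genes all rose, by 0.63 to 1.74 on the log2 scale. The brightest of these read 794, 801 and 598 on treated arrays and 263, 288 and 258 on control arrays (1.40 ± 0.13, SE; limma adjusted p = 2.9e-05). A probe set listed with 3 H2B genes, the brightest of them all, read 6889, 6343 and 6449 in treated cultures, against 3343, 3255 and 3617 in control cultures (0.94 ± 0.075; limma adjusted p = 1.2e-05). This H2B reading stands beside the H2B genes with probe sets of their own, which were not called.

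All 4 tested probe sets listed with 13 H4 genes rose. One of them read 337, 343 and 376 on treated arrays and 101, 92.2 and 92.3 on control arrays (1.78 ± 0.12, SE; limma adjusted p = 4.3e-06). Another read 444, 395 and 402 in treated cultures and 33.7, 20.6 and 19.3 in control cultures (3.65 ± 0.19; limma adjusted p = 9.0e-07). A further one had 337, 288 and 251 on treated arrays and 15.1, 3.24 and 9.67 on control arrays, where the fitted change was 4.03. The last 2 were those that passed through treated arrays alone, and with control signals at or near the pseudocount the sizes of their changes depend on that constant. For 2 of the 4, among them the one at 4.03, the accession beside the listed H4 genes belongs to H3c1 in RefSeq, so which histone family they read is not settled here. For the other 2 this was not checked, since their accessions are not in the RefSeq table.

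The exception among these shared probe sets of canonical genes was an H2A one. It is listed with 10 H2A genes of the chromosome 13 cluster and read 601, 506 and 535 on treated arrays, against 2770.3, 2244 and 1762 on control arrays. The log2 change was -2.01 ± 0.15 (SE; limma adjusted p = 8.2e-06), opposite to that of H2ac19. Its name is plain. Which of the 10 genes it read was not measured.

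Other genes of histone supply and of division were counted in 4 lists, each read against the shares of all tested genes given above, 19.5% higher and 21.6% lower. Of 24 tested genes of histone mRNA transcription and 3' processing, 3 rose and 7 fell, with a median log2 change of -0.0070. The total of 10 called is close to the 41.1% over all genes, and the counts were 5 higher and 6 lower with quantile normalization and 0 higher and 3 lower without scaling. Without treated replicate 1, treated replicate 2 or control replicate 3, 1 of the 24 was called higher. Slbp, which binds the stem-loop of canonical histone mRNAs, averaged 420.2 ± 25.2 in treated and 557 ± 37.1 in control cultures (SD, n = 3; log2 change -0.40; limma adjusted p = 0.0088). Npat, the activator of histone gene transcription at S phase entry, changed by -0.39 (limma adjusted p = 0.038), and Casp8ap2, a component of the same nuclear bodies, by -0.83 (0.00023). Tut4, a uridyltransferase that acts on RNA ends, had the lowest change of the 24, -1.09. Ccne2, a cyclin of the entry into S phase, rose by 0.65 and Ccna2, a cyclin of S phase and G2, fell by 0.87. Lsm11, a subunit of the particle that cuts histone pre-mRNA, rose by 0.87, and its partner Lsm10 fell by 0.32.

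Histone chaperones are proteins that carry histones to and from DNA. Of 32 tested genes in the list of that name, 1 rose and 12 fell, with a median of -0.26, where 19.5% of all tested genes rose and 21.6% fell. The list also holds genes that are not chaperones in this sense, among them Ep400, Srcap, Chd1, Mis18a and Oip5. Ep400, Mis18a and Oip5 are among the 12 that fell. The count of 12 was 7 without treated replicate 2, treated replicate 3 or control replicate 3, 8 without control replicate 2 and with quantile normalization, 6 with no filter and 5 without scaling. Dek changed by -1.12 ± 0.089 (SE; limma adjusted p = 1.2e-05), Atrx, which with Daxx deposits replacement H3 in heterochromatin, by -0.84 ± 0.10 (0.00017), and Ubn1, a partner of Hira, by -1.06 ± 0.15 (0.00044). The riser was Nap1l4, a carrier of H2A and H2B (0.45 ± 0.090; 0.0032). Nasp, a carrier of H3 and H4 and a keeper of H1, fell by 0.42 (0.036). Asf1b, Chaf1b, Hira and Daxx were not called, with log2 changes of 0.06, -0.23, -0.06 and -0.12.

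Of 26 tested genes of S phase and division, 15 fell and 1 rose, with a median log2 change of -0.52, beside 21.6% lower and 19.5% higher over all tested genes. The proliferation marker Mki67 averaged 129 ± 18.3 in treated and 437 ± 113 in control cultures (SD, n = 3), and Ccnb2, a mitotic cyclin, 105 ± 5.91 and 391 ± 85.6. Cenpa, the histone H3 variant of centromeres, which the symbol rule does not include, averaged 149 ± 12.2 in treated and 396 ± 60.01 in control cultures (log2 change -1.35; limma adjusted p = 5e-05). Pcna, the sliding clamp of replication, was not called (0.02; adjusted p = 0.89). Rrm2, part of the enzyme that makes deoxyribonucleotides, was the gene that rose (1.12). Of 9 tested non-histone chromatin proteins, 2 rose and 3 fell, beside the same shares of all genes. Hmga2, an architectural protein of AT-rich DNA, rose by 1.36 ± 0.075 (SE), and Hmgb2, a DNA-bending protein, and Cbx1, a heterochromatin protein, fell by 0.95 and 0.85. Whether the differences in division genes have a part in the histone results was not tested.

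**Figure D4:**
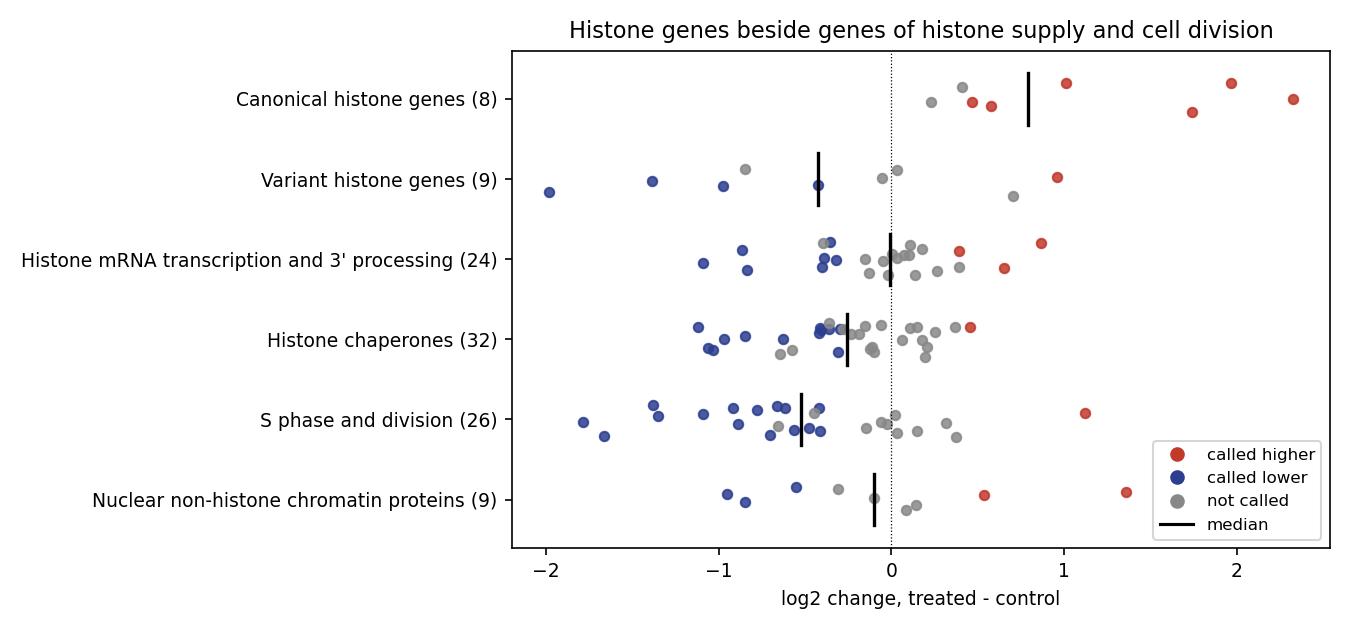
Log2 change, treated minus control, of the 8 canonical and 9 variant histone genes and of the tested genes in 4 lists of histone supply and division, with numbers of genes in brackets. Points are genes, red called higher, blue called lower and grey not called, and black bars are medians. The canonical genes all lie right of 0, and in the list of S phase and division the median is -0.52.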

How the data were processed

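Expression was measured in 3 treated and 3 control cultures with 1 array each. The deposited intensities are MAS5 signals, per the submitters' processing notes; neither the MAS5 version nor its target level is given in the sources used here, and detection calls were not used. Trimmed means of the deposited signals (2% at each end) were 149.2 to 223.9, so each array was scaled to their mean, 193.2, and log2(signal + 9.66) was taken, which understates changes of dim probe sets. The 64 control probe sets were left out. Probe sets above their array's median on at least 3 of 6 arrays (23388 of 45037) were compared with limma 3.58.1 (lmFit and eBayes with an intensity trend, R 4.3.3), two-sided, adjusted by Benjamini-Hochberg over all of them and called under 0.05. The procedure was tested on simulated data with 200 changed probe sets per run, far fewer than were called in the real data. It called 16.9% of 1.5-fold, 53.9% of 2-fold and 86.5% of 4-fold changes, and 5.34% of its calls were false. A gene that was not called may therefore have changed. No probe set was named from several genes: outside the controls 34945 listed 1 gene, 932 several and 9160 none. Of several tested probe sets of a gene, the one with the highest mean log2 signal stood for it.

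Canonical genes were H1f1 to H1f6, H2ac, H2bc, H2aw, H3c, H4c and Hist symbols, and the other members counted as variants. The text names every tested histone gene, with all 6 signals for those called, up to 4 genes of each list with the smallest p and 12 fixed genes, of which Chaf1a was not analysed here. Other list genes, including Lsm10 and Lsm11, and the marker genes given were chosen after their values were seen. Members, lists and tests were chosen with earlier results of these data known. Replicate numbers are shared between groups, and the labels do not say that they mark a shared explant; the number was not a term of the fit. Explants were separate for each biological replicate. P-values measure the spread between these cultures, and the number of arrays limits precision. Alternatives were no scaling, quantile normalization, smaller (0.02 of the mean) and larger (0.2) pseudocounts, no filter, a filter on the mean signal, no variance trend, a replicate block, probe sets with plain names, gene means of probe sets and leaving out each array.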

Additional observations from a re-analysis of the deposited data

How the results depend on the processing

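Without scaling, 1977 probe sets were higher and 3042 lower in treated cultures, the counts over the 4 lists of supply, division and chromatin genes were 2 higher and 22 lower, against 7 and 37 with scaling, and the median log2 change of canonical genes was 0.72. That median was 0.70 with the larger pseudocount, 0.47 with no filter, 0.57 with the filter on the mean signal and 0.71 with gene means of probe sets. The variant median was -0.24 with no filter. With plain probe sets only, 6 histone probe sets rose and 0 fell, 0 variant genes fell, 1 probe set listed with several genes fell, and the medians were 1.01 (canonical) and 0.033 (variants). Fewer probe sets enter that setting, and H2az1, Macroh2a2 and Macroh2a3 have none in it.

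Leaving out 1 array gave 5 to 7 canonical genes higher and 0 lower, 1 variant higher and 4 to 5 lower, 8 to 10 histone probe sets higher and 4 to 5 lower, and 10 to 12 probe sets listed with several genes higher and 2 lower. Canonical medians were 0.71 to 0.88 and variant medians -0.52 to -0.37. Over all probe sets 3555 to 3926 were higher and 3936 to 4202 lower, and in the lists 4 to 7 and 30 to 33.

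With the replicate block, 6 canonical genes rose and 0 fell, and 1 variant rose and 5 fell, since H1f10 passed (adjusted p = 0.036). Over all probe sets 4575 were higher and 4966 lower. Deviations from group means of the 3 same-numbered pairs correlated at 0.072 to 0.19 and those of other pairs at -0.15 to -0.022. Across groups every array thus correlated best with its own number, which is a hint from the data and not from the design. Because deviations were taken from group means, positive values in same-numbered pairs force negative ones on average in the other pairs. The ranges are therefore not separate evidence.

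Signs reversed for genes near 0 or read by another probe set: H2ax without scaling (-0.042), and over the fits that left out 1 array H2ax (-0.021 to 0.081, below 0 without treated replicate 2 at -0.0097 or control replicate 3), H2bc18 (-0.0093 to 0.43), Macroh2a1 (-0.11 to 0.019) and H3f3b (-0.35 without control replicate 3, up to 1.505 without control replicate 1), and with plain probe sets H1f2 (-0.079) and H2aw (-0.23). H2ac19, H3c4, H3c7, H3c11, H2aj, Macroh2a2 and Macroh2a3 kept their direction and call in every alternative that tested them. The cause of the other changes was not tested. Signals near background limit H3f3b, H1f10 and the dim probe sets.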
